A study of Mus musculus with 4 samples.

Results

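The CCR4-NOT subunits described here were the 10 genes Cnot1, Cnot2, Cnot3, Cnot4, Cnot6, Cnot6l, Cnot7, Cnot8, Cnot10 and Cnot11, chosen by name because they encode parts of the CCR4-NOT deadenylase complex. Cnot9, which shares their name, was not among them and was read in the list of other deadenylation factors. All 10 of the subunits described here had a row in both count tables, which together listed 26421 genes. Their reads made up 0.144% of all reads in experiment 1 and 0.168% in experiment 2, 548679 and 465092 reads in all.

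The cells were α-lymphoid progenitors (αLPs), sorted from bone marrow of C57BL/6 mice as cells without lineage markers and without FLT3 but with CD127 and the integrin LPAM-1, and read by single-cell RNA sequencing (TAS-Seq, on the BD Rhapsody platform). Untreated adult wild-type (WT) mice were compared with G3SEKO mice, which lack the GATA3-related tandem super-enhancers, a distal control region of the gene for the transcription factor GATA3. The knockout is carried by every cell of the animal, and bone marrow of several mice per genotype was combined. There were 2 experiments, each with 1 mRNA library and 1 library of hashtags (antibody barcodes that mark the origin of a cell). Experiment 1 gave 681 WT cells under 3 hashtags and 43 G3SEKO cells under 3 hashtags after filtering. Experiment 2 gave 5130 WT cells and 1159 G3SEKO cells under 1 hashtag each. The label of experiment 2 lists both hashtags under WT and names none for G3SEKO, so the assignment of the second hashtag to G3SEKO came from the rule used to choose the cells and not from a label, and every G3SEKO value of experiment 2 carries this limit. Cells gated on Il1rl1 (the Il1rl1+ gate) made up 69.1% of the WT cells and 4.2% of the cells of the second hashtag in that experiment, against 62.3% and 2.3% of the labelled WT and G3SEKO cells of experiment 1. The hashtags are not stated to be single mice, so the cells of 1 genotype in 1 experiment were summed and counted as 1 sample (n = 2 experiments), and p-values measure only the spread between these sums.

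CCR4-NOT shortens the poly(A) tail of mRNA, which is usually the first step of mRNA decay. It is built on the scaffold CNOT1, to which the NOT module (CNOT2 and CNOT3), the CNOT10-CNOT11 module and the catalytic enzymes bind. A complex carries 1 deadenylase of the CCR4 type, CNOT6 or its paralog CNOT6L, and 1 of the CAF1 type, CNOT7 or its paralog CNOT8, so within each pair the paralogs occupy the same place. CNOT4 is an E3 ubiquitin ligase that binds the complex less tightly. In the marrow, innate lymphoid cell precursors (ILCPs) that express Zbtb16 (PLZF) pass through ILC2-committed stages that express Icos to group 2 innate lymphoid cells (ILC2s), which carry ST2, the IL-33 receptor encoded by Il1rl1.

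Cells were gated on 5 genes at a level of at least 1 on the scale ln(1 + reads per 10000 reads of the cell). The Zbtb16+ gate held cells with Zbtb16 and without Il1rl1, Ccr6 or Eomes. The Icos+ gate held cells with Icos and none of the other 4. The Il1rl1+, Ccr6+ and Eomes+ gates held cells with that gene alone among Il1rl1, Ccr6 and Eomes. In WT the Zbtb16+, Icos+ and Il1rl1+ gates held 88, 80 and 424 cells in experiment 1 and 216, 564 and 3546 cells in experiment 2. In G3SEKO they held 17, 6 and 1 cells in experiment 1. There were 355 and 49 cells in the Zbtb16+ and Il1rl1+ gates of experiment 2, and 26.9% of the 1159 G3SEKO cells of that experiment in its Icos+ gate. The median depth was 404582 reads per cell in experiment 1 and 31975 in experiment 2, and 11 cell barcode numbers occurred in both libraries.

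Marker genes were checked in these sums, and some of the summed marker lists include a gating gene. Levels are given as CPM, the reads of a gene among 1000000 reads of the sum. Gata3, whose super-enhancers are deleted, stood in WT at 862 and 782 CPM in the Zbtb16+ gate, 1209 and 1004 in the Icos+ gate and 1387 and 1039 in the Il1rl1+ gate (experiments 1 and 2). In G3SEKO it stood at 937 and 498 CPM in the Zbtb16+ gate, 763 and 461 in the Icos+ gate and 296 in the Il1rl1+ gate of experiment 2. Gata3 was thus lower in G3SEKO in each of these pairs except the Zbtb16+ gate of experiment 1. Summed over each list, B lineage, myeloid and erythroid markers reached at most 24.7 CPM in sums of 5 or more cells of these 3 gates. In the same sums the 6 NK/ILC1 markers together lay between 4.7 and 295 CPM, with Eomes itself, a gating gene, at or below 5.5 CPM. In WT these sums were 221 and 130 CPM in the Zbtb16+ gate, 295 and 20.4 in the Icos+ gate and 21.1 and 19.1 in the Il1rl1+ gate. In G3SEKO they were 164 and 193 CPM in the Zbtb16+ gate, 4.7 and 246 in the Icos+ gate and 140 in the Il1rl1+ gate of experiment 2. Their part in the results was not tested. In sums of 5 or more cells of these 3 gates, summed T lineage markers lay between 152 and 467 CPM, while Cd3e, a defining gene of that list, stayed at or below 12 CPM.

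Cnot6l and Cnot6, the CCR4-type catalytic paralogs, moved apart between the gates. Cnot6l lies on the minus strand of chr5:96070333-96164171 (GRCm38), a locus with no other annotated gene inside it. Cnot6 lies on the minus strand of chr11:49671503-49712723, with a processed pseudogene on each strand inside its bounds. None of the 10399 stretches of 50 bases in the Cnot6l transcripts occurs in a transcript of another gene, and 0.752% of the 6651 stretches in the Cnot6 transcripts do, none of them in another subunit.  The 250 bases before a RefSeq transcription start of each gene (GRCm38.p6, gene strand, 5′ to 3′) are shown because the balance of this pair differed across the gates, with the letters GATA on either strand in capitals.
Cnot6l, chr5:96161991-96162240: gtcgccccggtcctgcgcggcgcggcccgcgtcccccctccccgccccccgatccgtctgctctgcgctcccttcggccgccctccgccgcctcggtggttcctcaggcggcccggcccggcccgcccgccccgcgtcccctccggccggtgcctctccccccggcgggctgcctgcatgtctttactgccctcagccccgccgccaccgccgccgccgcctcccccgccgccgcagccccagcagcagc
Cnot6, chr11:49712723-49712972: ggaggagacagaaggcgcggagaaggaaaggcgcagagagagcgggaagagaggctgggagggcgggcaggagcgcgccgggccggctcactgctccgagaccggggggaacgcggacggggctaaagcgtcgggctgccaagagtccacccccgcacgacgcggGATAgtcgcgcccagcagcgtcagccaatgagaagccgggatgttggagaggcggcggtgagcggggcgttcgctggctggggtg
The Cnot6l window is 82.4% G or C with 37 CG dinucleotides and holds no GATA, and it lies inside the annotated bounds of the gene. Windows before other RefSeq start sites of Cnot6l hold no GATA either. The Cnot6 window is 70.8% G or C with 29 CG dinucleotides and holds GATA once, starting 85 bases before the start site. Neither window holds the longer form of the GATA motif, with A or T before and A or G after it, on either strand. Among all 32851 such windows of the RefSeq table, 53.6% hold GATA and 26.5% hold the longer form on either strand, with a median of 52.4% G or C and 6 CG dinucleotides. A match is only a description of the letters in these windows.

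In WT cells Cnot6l stood lowest in the Zbtb16+ gate, higher in the Icos+ gate and highest in the Il1rl1+ gate of these 3. Its level was 339 CPM in the Zbtb16+ gate of experiment 1 and 458 CPM in that of experiment 2. In the Icos+ gate it was 657 and 801 CPM. In the Il1rl1+ gate it was 953 and 1037 CPM. The means were 398 ± 83.7, 729 ± 102 and 995 ± 59.3 CPM (SD, n = 2). The counting interval of the highest value, from 153525 reads, ran from 1032 to 1042 CPM (95%, exact Poisson), far narrower than the gap between the experiments. Reads copied from 1 molecule were not collapsed, so such intervals cover counting error only.

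The 3 WT hashtags of experiment 1 gave the same order for Cnot6l. In the Il1rl1+ gate they stood at 879, 986 and 1003 CPM, in the Icos+ gate at 792, 552 and 620 CPM, and in the Zbtb16+ gate at 369, 377 and 269 CPM. Within each hashtag Cnot6l was lowest in the Zbtb16+ gate and highest in the Il1rl1+ gate.

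Cnot6 did not share this pattern. In WT it stood at 253 and 334 CPM in the Zbtb16+ gate, 241 and 266 CPM in the Icos+ gate and 183 and 220 CPM in the Il1rl1+ gate (experiments 1 and 2). Its means were 294 ± 57.5, 253 ± 17.2 and 202 ± 26.2 CPM (SD, n = 2). Within each experiment the Il1rl1+ gate was the lowest of the 3, but the ranges of the Zbtb16+ and Icos+ gates overlapped between experiments.

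**Figure D1:**
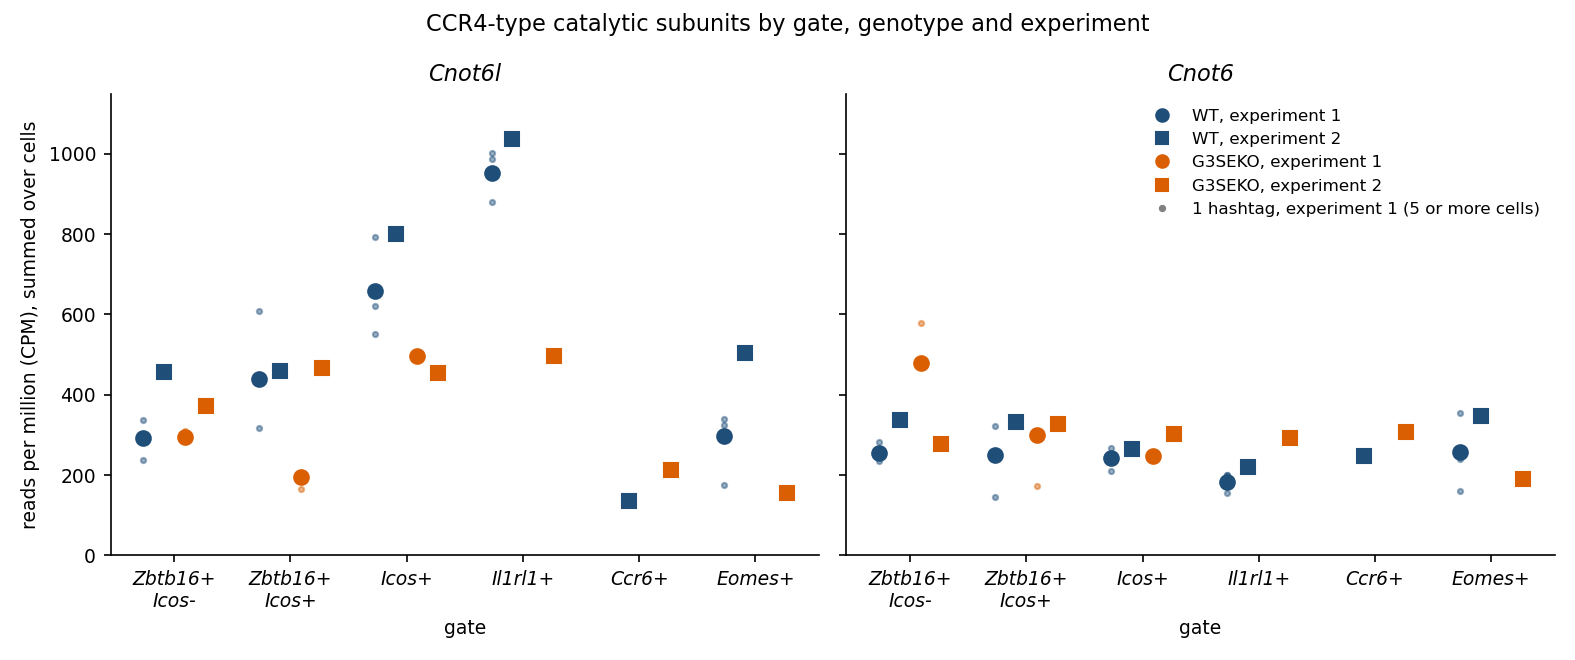
Levels (CPM) of Cnot6l (left) and Cnot6 (right) for each gate on the horizontal axis. Large symbols are sums over the cells of 1 genotype in 1 experiment with 5 or more cells, and small points are single hashtags of experiment 1. WT Cnot6l runs from 339 and 458 CPM in the Zbtb16+ gate to 953 and 1037 CPM in the Il1rl1+ gate, while the G3SEKO sum of the Il1rl1+ gate in experiment 2 stands at 497 CPM.

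A quasi-likelihood test in edgeR compared the WT Il1rl1+ gate with the WT Zbtb16+ gate over 20868 genes, with the experiment as a block and p-values adjusted by the Benjamini-Hochberg method over all of them. Cnot6l rose by 1.40 on the log2 scale (SE 0.12, adjusted p = 0.016), by 1.49 in experiment 1 and 1.18 in experiment 2. It was the only subunit of 10 past the threshold of 0.05, where 626 genes, 3.0% of those tested, were called (252 up and 374 down). Without the experiment block the change was 1.39 and the adjusted p was 0.056, so the call was lost. With 1 sum per hashtag (8 sums) the change was 1.46 with an adjusted p of 0.0067. The study itself singled out Cnot6l in these cells, so its call here is not independent evidence.

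Cnot6 differed by -0.47 between the same gates (SE 0.14, adjusted p = 0.17) and was not called, although both experiments gave a lower level, -0.46 and -0.60. From the Icos+ to the Il1rl1+ gate Cnot6l differed by 0.46 (SE 0.08, adjusted p = 0.45), with 0.54 and 0.37 in the 2 experiments. Cnot6 differed by -0.33 between these gates (SE 0.11, adjusted p = 0.53). From the Icos+ to the Il1rl1+ gate edgeR called 0 of 20626 genes, 0% of those tested, while 1934 had an unadjusted p under 0.05, and DESeq2 called 945 genes, 5.87% of its tests, none of them a subunit. The Icos+ gate held the most Mki67 and Top2a, markers of dividing cells, with summed levels of 90.1 and 541 CPM against 30.4 and 79.6 CPM in the Il1rl1+ gate. Without cells with Mki67 the Cnot6l difference was 0.38, and the part of these markers in it was not otherwise tested. In an alternative added after seeing the data, with only precursors without an Il1rl1 read (8 cells in the smaller group), Cnot6l differed by 0.08 and Cnot6 by -0.16.

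The share of Cnot6l among the reads of its pair compares the paralogs within the same cells. In WT the share was 57.3% (95% exact binomial interval 56.8 to 57.8) and 57.8% (56.8 to 58.7) in the Zbtb16+ gate of experiments 1 and 2. It was 73.1% and 75.1% in the Icos+ gate, and 83.9% (83.7 to 84.0) and 82.5% (82.3 to 82.6) in the Il1rl1+ gate. The experiments differed by at most 2 points within a gate, while the Il1rl1+ and Zbtb16+ gates differed by 25.6 ± 1.34 points (SD, n = 2 experiments). With 2 experiments no exact test could pass the threshold, and none was made. Inside the Zbtb16+ gate, cells without Icos had shares of 53.5% and 57.5% and cells with Icos 63.8% and 58.1%, a gap that lay within counting error in experiment 2. At a gate threshold of 0.5 the order turned in experiment 2, with 56.5% without and 55.8% with Icos. Per hashtag of experiment 1 the share was 62.7%, 61.3% and 47.4% in the Zbtb16+ gate, 77.2%, 67.4% and 74.7% in the Icos+ gate and 85.1%, 83.1% and 83.5% in the Il1rl1+ gate.

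Set against the constant subunits Cnot1, Cnot2, Cnot3, Cnot10 and Cnot11, Cnot6l differed more across the gates than Cnot6 did. These 5 genes are constant as parts of the complex, not in level. Per 100 reads of these 5 genes together, the WT Zbtb16+ gate held 79.6 and 82.8 Cnot6l reads, the Icos+ gate 157 and 168, and the Il1rl1+ gate 280 and 238. The corresponding Cnot6 reads were 59.4 and 60.5, then 57.8 and 55.6, then 54.0 and 50.6. The constant subunits themselves summed to 426 and 552 CPM in the Zbtb16+ gate, 417 and 478 in the Icos+ gate and 340 and 436 in the Il1rl1+ gate. Relative to the constant subunits Cnot6 thus lay within 50.6 and 60.5 reads, and Cnot6l within 79.6 and 280.

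**Figure D2:**
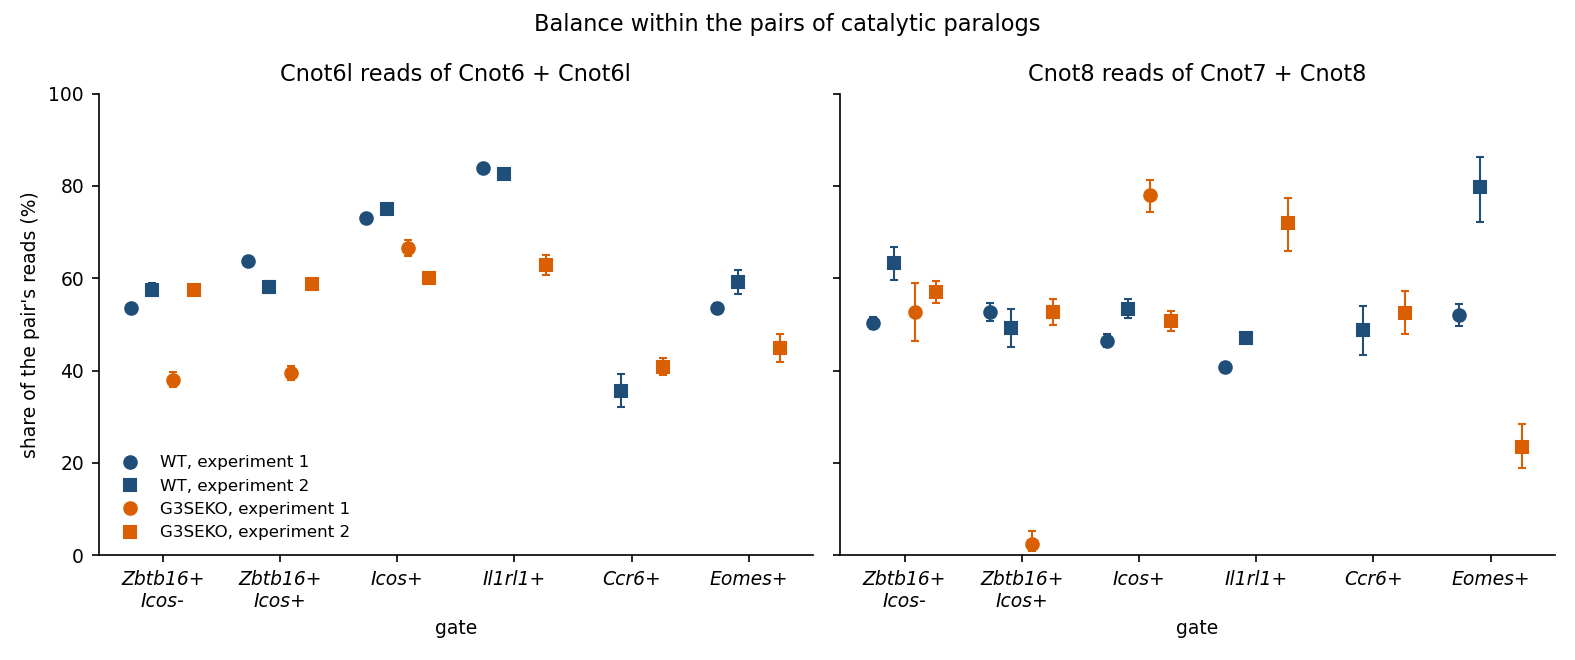
Share of Cnot6l in the reads of Cnot6 and Cnot6l (left) and of Cnot8 in the reads of Cnot7 and Cnot8 (right), in percent, for each gate with 5 or more cells. Error bars are 95% exact binomial intervals, which cover counting error only. The WT Cnot6l share climbs from 57.3% and 57.8% over the Zbtb16+ gate as a whole to 83.9% and 82.5% in the Il1rl1+ gate, and the Cnot8 share shows no such climb.

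The same shift was seen in single cells brought to equal depth. Each cell was thinned to the read limit set for cells of experiment 2, and no cell kept was shallower. WT cells with reads of Cnot6l but none of Cnot6 made up 22.7% and 33.3% of the Zbtb16+ gate, 37.5% and 48.4% of the Icos+ gate and 53.1% and 54.3% of the Il1rl1+ gate. Cells with Cnot6 alone made up 19.3% and 16.7%, then 13.8% and 8.7%, then 4.5% and 6.2%. Cells with both made up 36.4% and 29.2%, then 30.0% and 24.1%, then 31.4% and 23.4%. Before thinning, Cnot6l had a read in 96.6% and 79.2% of Zbtb16+ cells and in 98.3% and 86.1% of Il1rl1+ cells. Cnot6 had a read in 94.3% and 59.3% of the former and in 75.9% and 40.3% of the latter. No gate could serve as a cell type lacking these broadly used genes, so the part of free RNA in the shares was not tested.

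**Figure D3:**
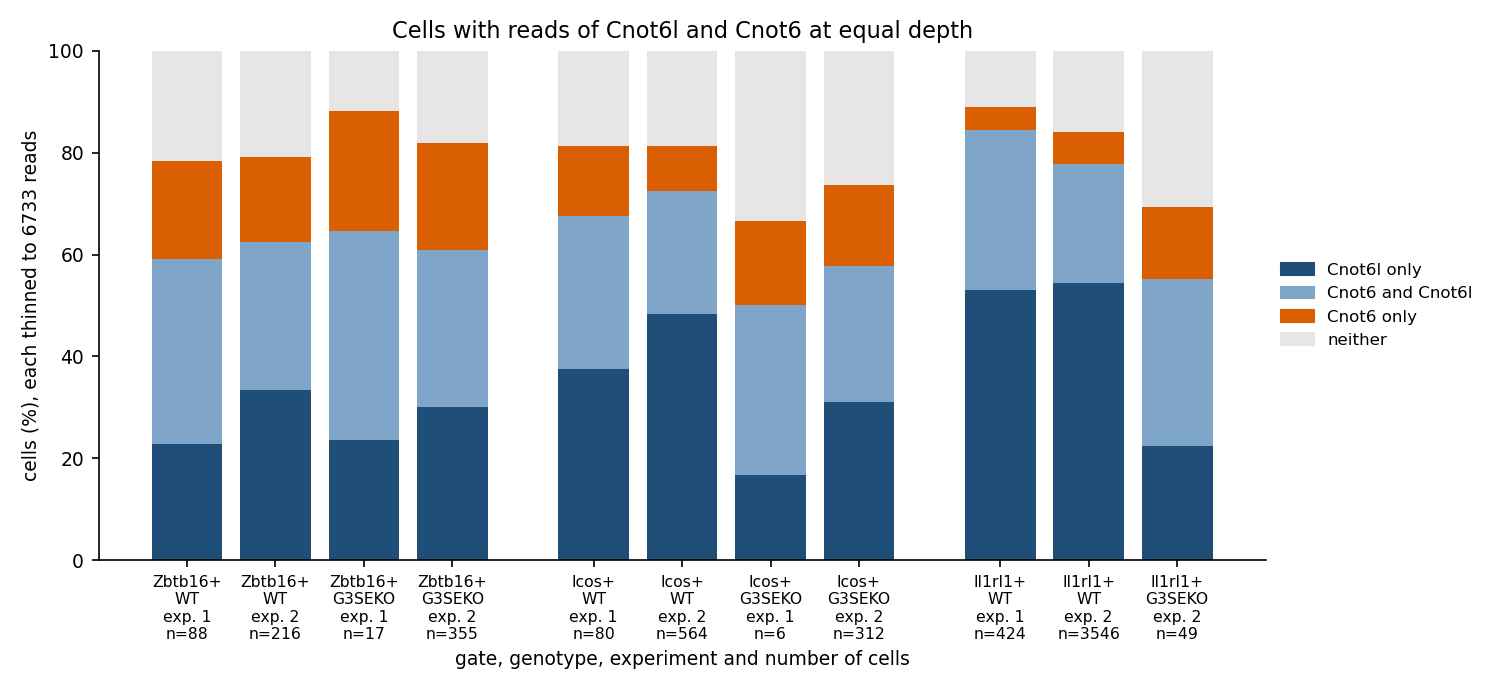
Percent of cells with reads of Cnot6l only, of both paralogs, of Cnot6 only and of neither, after thinning every cell to the same number of reads, by gate, genotype and experiment with the number of cells under each bar. Cells with Cnot6l only fill 53.1% and 54.3% of the WT Il1rl1+ gate but 22.4% of the 49 G3SEKO cells of that gate.

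Cnot7 and Cnot8, the CAF1-type catalytic paralogs, showed a smaller difference in their balance. Cnot7 stood in WT at 55.1 and 41.6 CPM in the Zbtb16+ gate, 57.3 and 40.4 in the Icos+ gate and 54.2 and 44.1 in the Il1rl1+ gate. Cnot8 stood at 57.6 and 55.3 CPM, then 49.8 and 46.4, then 37.1 and 39.3. Between the Il1rl1+ and Zbtb16+ gates Cnot7 differed by 0.09 (SE 0.23, adjusted p = 0.91, edgeR) and Cnot8 by -0.50 (SE 0.23, adjusted p = 0.36), and neither was called. The Cnot8 share of the pair was 51.1% and 57.1% in the Zbtb16+ gate, 46.5% and 53.4% in the Icos+ gate and 40.7% and 47.1% in the Il1rl1+ gate, a difference of -10.2 ± 0.32 points (SD, n = 2) from the first gate to the last that became -16.5 points after thinning of the cells. The WT hashtags of experiment 1 did not all share it, with Cnot8 shares of 35.5%, 69.0% and 50.1% in the Zbtb16+ gate and 36.1%, 46.6% and 41.6% in the Il1rl1+ gate. Within a gate the experiments differed by between 6 and 7 points, so gates were compared within an experiment. Cnot7 overlaps Vps37a and Zdhhc2 on the other strand, and 7.82% of the 50-base stretches of Cnot8 occur in a pseudogene, so the reads of these genes are less certain.

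Among the constant subunits none was called by edgeR between the WT Il1rl1+ and Zbtb16+ gates. The scaffold Cnot1 stood at 116 and 200 CPM in the Zbtb16+ gate and at 102 and 177 CPM in the Il1rl1+ gate, a difference of -0.11 (SE 0.16, adjusted p = 0.82) that was smaller than the gap between experiments. Cnot2, of the NOT module, stood at 112 and 133 CPM against 93.2 and 103 CPM, a difference of -0.26 (SE 0.17, adjusted p = 0.52). Its NOT module partner Cnot3 stood at 127 and 123 CPM against 70.9 and 59.7 CPM. The difference of Cnot3 was -0.88 (SE 0.18, adjusted p = 0.082). Cnot3 overlaps Leng1 on the other strand, and 8.83% of its 50-base stretches occur in other genes, so its reads are less certain. The same limit holds for Cnot1, of whose 50-base stretches 4.28% occur in Gm6158. Genes of small RNAs also overlap Cnot1 on its own strand.

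Cnot10 and Cnot11, which form 1 module, differed in opposite directions. Cnot10 stood at 21.9 and 45.6 CPM in the Zbtb16+ gate and 46.8 and 69.9 CPM in the Il1rl1+ gate, a difference of 0.92 (SE 0.25, adjusted p = 0.15, edgeR). Cnot11 stood at 49.2 and 50.8 CPM against 26.6 and 27.2 CPM, a difference of -0.83 (SE 0.25, adjusted p = 0.18). The ligase Cnot4 stood at 38.3 and 60.4 CPM against 75.2 and 68.1 CPM, a difference of 0.64 (SE 0.26, adjusted p = 0.31). The Icos+ gate lay between these values for Cnot3 and Cnot11, above both for Cnot10 in experiment 1, and above both for Cnot4 in experiment 2. DESeq2, which called 2667 genes or 15.1% of its tests, called Cnot6l, Cnot10 (0.90, adjusted p = 0.024), Cnot11 (-0.85, adjusted p = 0.029) and Cnot3 (-0.90, adjusted p = 0.0024). After thinning of the cells edgeR called Cnot6l and Cnot3 (-1.0, adjusted p = 0.010). The median difference of the 10 subunits was -0.19, against 0.09 over all genes tested.

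**Figure D4:**
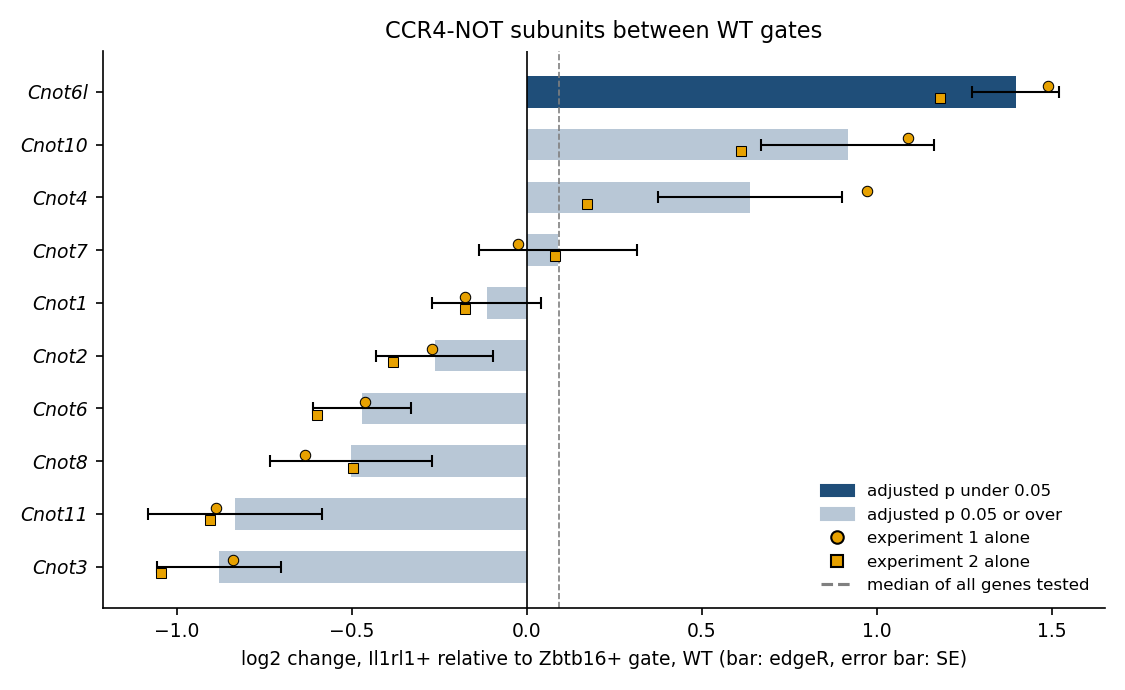
Log2 change of each subunit in the WT Il1rl1+ gate relative to the WT Zbtb16+ gate (bars, edgeR, with SE) and the change in each experiment alone (points). Cnot6l, at 1.40, is the only bar past the threshold, and the dashed line marks the median of all genes at 0.09.

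The Cnot6l level of G3SEKO cells differed between the experiments in its course over the gates. In experiment 2 it was 419 CPM in the Zbtb16+ gate, 453 in the Icos+ gate and 497 in the Il1rl1+ gate. In experiment 1 it was 234 CPM in 17 Zbtb16+ cells and 495 CPM in 6 Icos+ cells. From the Zbtb16+ to the Icos+ gate the log2 ratio of Cnot6l was thus 1.08 in G3SEKO and 0.95 in WT in experiment 1, and 0.11 and 0.81 in experiment 2. At this gate threshold the smaller step in G3SEKO was seen in experiment 2 alone, and the step of experiment 1 rests on these few cells. The single Il1rl1+ cell of experiment 1 held 2 reads of Cnot6l and 336 of Cnot6. The WT sums of experiments 1 and 2, 339 and 458 CPM in the Zbtb16+ gate and 657 and 801 CPM in the Icos+ gate, lay above the G3SEKO sums of the same experiment and gate. Cnot6 stood in G3SEKO at 370 and 301.7 CPM in the Zbtb16+ gate, 248 and 301.9 in the Icos+ gate and 293 in the Il1rl1+ gate of experiment 2.

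In the Zbtb16+ gate edgeR gave a G3SEKO to WT difference of -0.29 for Cnot6l (SE 0.18, adjusted p = 1.0), with -0.53 and -0.13 in the 2 experiments (log2 ratios of 1 experiment, here and elsewhere, were taken after adding 2 reads to each sum). Cnot6 differed by 0.24 (SE 0.26), with 0.55 and -0.15, and by 0.024 without the limit on Id2. None of the 10 subunits was called, and 0 of 16333 genes were called in all, 0% of those tested, with 242 at an unadjusted p under 0.05. DESeq2 called 55 genes, 0.379% of its tests, and none of the subunits.

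In the Icos+ gate Cnot6l differed by -0.59 between G3SEKO and WT (SE 0.28, adjusted p = 1.0, edgeR), with -0.41 and -0.82 in the 2 experiments. At a gate threshold of 1.5 it differed by -1.10 and after thinning of the cells by -1.04, again without a call. The median over all genes of that comparison was -0.34. The gate also differed between genotypes in the marker lists reported here. In G3SEKO the ILCP markers summed to 1028 and 1306 CPM (experiments 1 and 2), against 819 and 362 CPM in WT. The markers of committed ILC2 cells summed to 6126 and 4233 CPM in G3SEKO, against 3101 and 2782 CPM in WT. That sum includes the gating gene Icos, at 2250.5 and 1671 CPM in G3SEKO against 1579 and 1533 CPM in WT. The ILCP sum includes Zbtb16, which the gate limits, at 8.3 and 20.0 CPM against 21.1 and 10.6 CPM. The part of these cells in the Cnot6l difference and in the shares of this gate was not tested. Cnot6 differed by 0.13 (SE 0.36), with 0.04 and 0.18. Again none of the 10 subunits was called, and edgeR called 0 of 16450 genes, 0%, with 1.84% at an unadjusted p under 0.05, where DESeq2 called 15, 0.0949% of its tests, and none of the subunits.

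In the Il1rl1+ gate no test could be made, since the G3SEKO sum of experiment 1 is 1 cell. In experiment 2 the Cnot6l level of 497 CPM (counting interval 470 to 525) in 49 G3SEKO cells stood against 1037 CPM in 3546 WT cells, a log2 ratio of -1.06. Cnot6, at 293 against 220 CPM, had a log2 ratio of 0.42. The Cnot6l ratio of the Il1rl1+ gate minus that of the Zbtb16+ gate was -0.93. These 49 cells differed from the WT cells of the gate in other markers as well. Their Il1rl1 level was 574 against 1363 CPM, their summed ILCP markers (Zbtb16, Pdcd1, Tox, Tox2 and Tcf7, all with reads) stood at 1699 against 151 CPM, and Zbtb16 alone at 305 against 30.6 CPM. The part of these cells in the Cnot6l difference was not tested.

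At the gate threshold of 1 the balance within the pair also differed between the experiments in G3SEKO. The Cnot6l share in experiment 2 was 58.1% in the Zbtb16+ gate, 60.0% in the Icos+ gate and 62.9% (60.7 to 65.0) in the Il1rl1+ gate, against 57.8%, 75.1% and 82.5% in WT. In experiment 1 it was 38.8% in the Zbtb16+ gate and 66.6% in the Icos+ gate, against 57.3% and 73.1% in WT. Between these 2 gates the share thus climbed more in G3SEKO than in WT in experiment 1 and less in experiment 2. The G3SEKO shares of experiment 1 rest on 17 and 6 cells at the gate threshold of 1, so this contrast between the experiments was not settled. Per 100 reads of the constant subunits, G3SEKO cells of experiment 2 held 75.2, 78.3 and 95.8 Cnot6l reads and 54.2, 52.2 and 56.6 Cnot6 reads in these gates. In the Zbtb16+ gate the counting intervals of the genotypes overlapped in experiment 2 and lay apart in experiment 1, where the G3SEKO sum held 17 cells.

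The other subunits were not called between the genotypes either. In the Zbtb16+ gate of experiment 2 the levels in G3SEKO and WT were 202 and 200 CPM for Cnot1, 129 and 133 for Cnot2, and 114 and 123 for Cnot3. They were 34.8 and 50.8 CPM for Cnot11, 51.7 and 41.6 for Cnot7, 63.7 and 55.3 for Cnot8, and 71.4 and 60.4 for Cnot4. In experiment 1, with 17 G3SEKO cells, Cnot11 (75.6 against 49.2 CPM), Cnot7 (30.0 against 55.1) and Cnot8 (11.9 against 57.6) differed in the opposite direction. Cnot10 stood at 77.1 CPM in experiment 1 and 77.3 in experiment 2, above both WT values of that gate, and its difference of 1.33 (SE 0.48, adjusted p = 1.0, edgeR) was not called. Cnot3 was lower from gate to gate in G3SEKO too, at 114, 85.7 and 48.3 CPM in experiment 2. The 6 Icos+ cells of experiment 1 gave the highest or lowest value among sums of 5 or more cells for several subunits, at 225 CPM of Cnot2, 115 of Cnot8, 1.0 of Cnot11 and 2.3 of Cnot4.

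**Figure D5:**
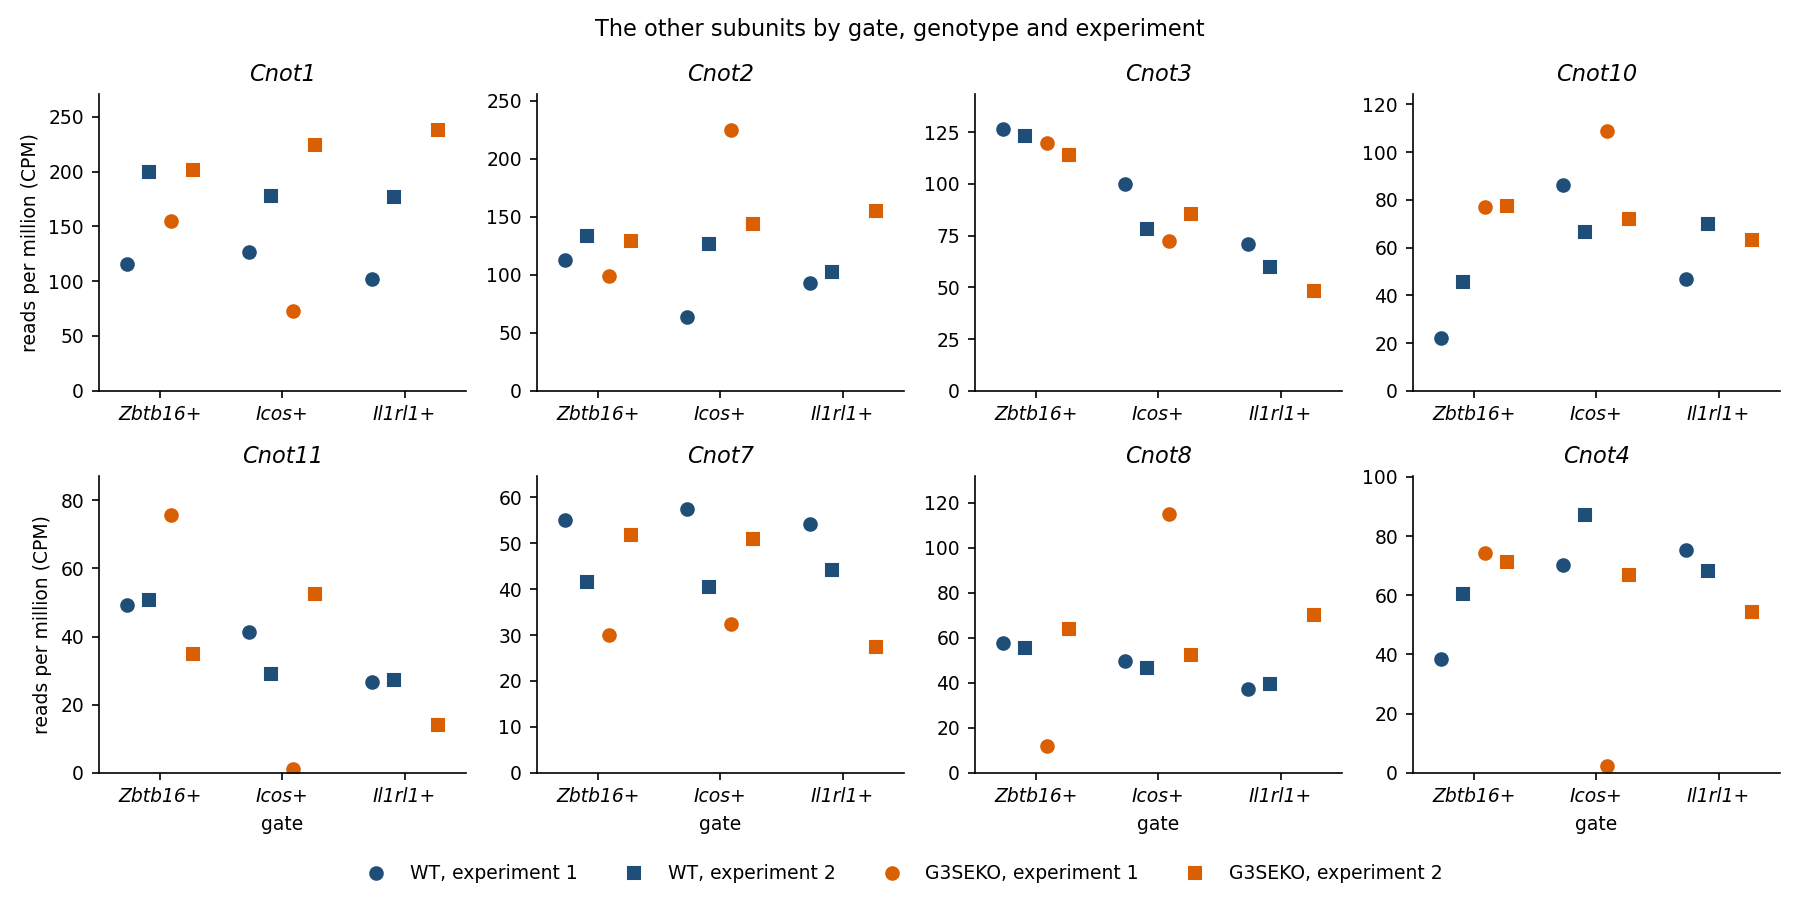
Levels (CPM) of the other 8 subunits in the Zbtb16+, Icos+ and Il1rl1+ gates, 1 panel per gene with its own scale from 0, for sums of 5 or more cells. WT Cnot3 stands at 127 and 123 CPM in the Zbtb16+ gate and 70.9 and 59.7 CPM in the Il1rl1+ gate. The G3SEKO circles of the Icos+ gate, which rest on 6 cells, stand apart in several panels.

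Among the gates of 5 or more WT cells the Ccr6+ gate, outside the ILC2 path, had the lowest Cnot6l level, while among those of G3SEKO in experiment 2 the Eomes+ gate had the lowest. In the Ccr6+ gate of experiment 2, whose cells carry the lymphoid tissue inducer marker Ccr6, Cnot6l stood at 136 CPM (counting interval 120 to 154) in 38 WT cells and 213 CPM in 107 G3SEKO cells. Cnot6 stood there at 247 and 307.7 CPM, so more reads came from Cnot6 than from its paralog and the Cnot6l share was 35.6% (32.1 to 39.2) and 40.9%. In the Eomes+ gate, marked by a transcription factor of NK cells, Cnot6l stood at 297 and 505 CPM in 25 WT cells of each experiment and at 155 CPM in 42 G3SEKO cells of experiment 2. The WT shares were 53.6% and 59.3% and the G3SEKO share 44.97%. At a gate threshold of 1.5 the shares of experiment 2 were 44.8% in 16 WT cells and 45.2% in 32 G3SEKO cells, so the gap between genotypes in this gate depended on the threshold. At equal depth 28.9% of WT and 29.0% of G3SEKO Ccr6+ cells had Cnot6 alone, against 6.2% of WT Il1rl1+ cells in the same experiment. In order of the Cnot6l level in WT of experiment 2, the gates ran Ccr6+, Zbtb16+, Eomes+, Icos+ and Il1rl1+. The Zbtb16+ and Eomes+ gates exchanged places in experiment 1, so their order was not settled.

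Other genes of mRNA decay were read from lists of 11 RNA-binding recruiters of the complex, 13 other deadenylation factors and 11 decapping and 5′ decay genes, all of them tested. Between the WT Il1rl1+ and Zbtb16+ gates 3 of the 11 recruiters rose and none fell, with a list median of 0.25, where 252 genes rose and 374 fell of all 20868 tested (3.0% called). They were 3 members of a family of zinc finger proteins that bind AU-rich elements, Zfp36 (1.98, SE 0.17, adjusted p = 0.015, edgeR), Zfp36l1 (1.33, SE 0.11, adjusted p = 0.015) and Zfp36l2 (1.64, SE 0.12, adjusted p = 0.013). With 1 sum per hashtag Zfp36 was no longer called. Recruiters that act through microRNAs, Tnrc6a (0.33), Tnrc6b (0.04) and Tnrc6c (0.25), did not pass the test.

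Of the 13 genes listed as other deadenylation factors 1 rose and 1 fell, against the same 3.0% of all genes, with a median of -0.01. Btg1, which binds CAF1-type deadenylases, rose by 1.13 (SE 0.13, adjusted p = 0.024, edgeR), and its call was lost with 1 sum per hashtag and at a gate threshold of 1.5. Noct, a relative of the CCR4-type enzymes by its catalytic domain only, fell by 1.1 (SE 0.11, adjusted p = 0.020). The poly(A) nuclease genes Pan2 (0.22) and Pan3 (-0.04) and Parn (-0.06) did not pass. Cnot9, which was read in this list and not with the subunits, differed by -0.39 (SE 0.26, adjusted p = 0.54, edgeR) and was not called. None of the 11 decapping and 5′ decay genes was called, with a median of -0.01 and a range from -0.57 to 0.59. Without the experiment block none of these 5 called genes passed. In the other 3 tests no gene of the lists was called.

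The genes whose level was most like that of Cnot6l over 17 sums of gate, genotype and experiment, among 9771 genes with a mean of at least 10 CPM, were Rad50 (Pearson r = 0.91), Kcnn4 (0.89) and Ccr9 (0.86). Those most like Cnot6 were Slc12a7 (0.83), Mtpn (0.82) and Nckap1l (0.82). Cnot6l and Cnot6 themselves had an r of -0.03, and the subunit most like Cnot6l was Cnot10 at 0.33. These sums share libraries and cells of the same sort, so the correlations only describe them.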

How the data were processed

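Raw read counts per gene and cell were deposited by the authors, who aligned reads with Bowtie2 to GRCm38. These are reads, not molecules. Hashtag read counts were deposited as well, and the origin of a cell was read from its name. Limits on cells were 83012 reads (6733 in experiment 2), a mitochondrial share of up to 10%, a single hashtag and Id2 at 1 or more on the gating scale, while 2 and 100 cells called doublets or undetected were left out. Cells positive for more than 1 of Il1rl1, Ccr6 and Eomes were left out.

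Counts were summed over the cells of a gate, genotype and experiment (at least 5 cells) and tested with edgeR 4.0.16 in R 4.3.3 (quasi-likelihood, TMM, low counts filtered, experiment as a block) over all genes. The block was kept because cells of both groups came from the same library. Deviations of same-experiment sums correlated over genes with r between 0.14 and 0.34. DESeq2 1.42.0, other thresholds, thinning and other sums were alternatives. Shares have exact binomial and levels exact Poisson intervals. All 10 subunits, list genes past the threshold, and the 3 genes most like Cnot6l and Cnot6 were named. The members, lists and tests were chosen with earlier results of these data known. Promoters came from RefSeq, gene positions from GENCODE. The LTi/ILC3 marker list is not reported here.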

Additional observations from a re-analysis of the deposited data

Results flagged for a closer look

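Cnot2 and Cnot4 moved in opposite directions in pairs of groups, in both experiments each time. None of these differences between groups was tested, and each rests in experiment 1 on the 6 G3SEKO cells of the Icos+ gate. In experiment 2 some directions lay within counting error. Counting intervals overlapped there for Cnot2 between genotypes in the Zbtb16+ gate and between the WT gates. They also overlapped for Cnot4 between the G3SEKO gates. The ratios were taken after adding 2 reads to each sum, which brings them closer to 0 where reads are few, as for Cnot4 with 9 reads in these 6 cells.

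For Cnot2, the G3SEKO to WT ratio (log2) was -0.18 and -0.048 in the Zbtb16+ gate (experiments 1 and 2) but 1.83 and 0.19 in the Icos+ gate. Its log2 ratio of the Icos+ to the Zbtb16+ gate was -0.83 and -0.079 in WT but 1.18 and 0.16 in G3SEKO. For Cnot4, the G3SEKO to WT ratio (log2) was 0.95 and 0.24 in the Zbtb16+ gate but -4.62 and -0.38 in the Icos+ gate. Its log2 ratio of the Icos+ to the Zbtb16+ gate was 0.87 and 0.53 in WT but -4.70 and -0.10 in G3SEKO.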

How the results depend on the processing

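Between the WT Il1rl1+ and Zbtb16+ gates the Cnot6l change lay between 1.34 and 1.49 over 12 alternatives and was called in 11 of them, the exception being the fit without the replicate block (0 subunits and 244 genes called). DESeq2 called 4 subunits and 2667 genes, thinning 2 and 1407, no filter on low counts 1193 genes and a gate threshold of 1.5 306 genes. Thinning turned Cnot1 to 0.11. In the other comparisons the block changed no call. Between the WT Il1rl1+ and Icos+ gates 945 genes were called by DESeq2, 60 after thinning, and 1 each with 1 sum per hashtag and at gate thresholds of 0.5 and 1.5. Among alternatives added after seeing the data, 15 were called with precursors without an Il1rl1 read, where the smaller WT group held 8 cells and Cnot6l differed by 0.08, and 6 with Il18r1 in the Icos+ gate. Between genotypes 55 genes (DESeq2) and 2 (thinned) were called in the Zbtb16+ gate, and 15 (DESeq2), 57 (no filter) and 12 (thinned) in the Icos+ gate. There Cnot6l differed by between -1.10 (gate threshold of 1.5) and -0.44 (with Il18r1), and Cnot6 turned to -0.19 after thinning and -0.054 with Il18r1. In the Il1rl1+ gate the G3SEKO to WT log2 ratio of Cnot6l was -1.22 and -0.95 at thresholds of 0.5 and 1.5, -0.93 with genotype from hashtag reads, and between -6.68 (experiment 1, 1 cell with 2 reads of Cnot6l) and -1.06 by experiment. These ratios were taken after adding 2 reads to each sum, which brings the first closer to 0. Its difference from the Zbtb16+ gate was then -1.19, -0.83 and -0.79, and between -6.15 and -0.93. The WT Cnot6l share differed by 27.8 points with no Id2 limit and by 24.7 to 26.6 by experiment. The Cnot8 share differed by -16.5 points after thinning, -10.7 and -10.6 at thresholds of 0.5 and 1.5, -13.7 as a mean over cells, -11.3 with no Id2 limit, and -10.4 to -9.96 by experiment. Among differences not called by edgeR, Cnot6 between genotypes in the Zbtb16+ gate lay between 0.024 and 0.25, Cnot7 between the WT Il1rl1+ and Zbtb16+ gates between 0.029 and 0.32, Cnot10 there between 0.58 and 1.26, Cnot11 between -0.89 and -0.50, and Cnot6 between the WT Il1rl1+ and Icos+ gates between -0.55 and -0.12. For these moves the cause was not tested. Precursors without an Il1rl1 read could not be fitted in the other comparisons, for want of cells.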

Other observations

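Cells below the threshold for all 5 gating genes entered no comparison. Their Cnot6l share of the pair was 74.7% and 81.8% in WT (62 and 738 cells, experiments 1 and 2) and 56.3% and 59.7% in G3SEKO (12 and 292 cells). In WT their Cnot6l level was 564 and 792 CPM, and in G3SEKO it was 260 and 307.2 CPM. Cnot6 stood at 191 and 176 CPM in these WT cells and at 202 and 207 CPM in the G3SEKO cells.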
